A study of Anopheles gambiae with 18 samples.

Results

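The transcripts described here were 6 digestive peptidases of the *Anopheles gambiae* midgut: trypsin 3 (ENSANGT00000006721), trypsin 4 (ENSANGT00000018384), trypsin 5 (ENSANGT00000018317), trypsin 7 (ENSANGT00000018316) and the carboxypeptidases ENSANGT00000021052 and ENSANGT00000020553. They were taken by identifier from the 14197 transcripts on the array, where each of the 6 had 1 spot. They are the blood-digestive transcripts that the study singled out by name, as enriched in female midgut, in its comparison of male and female midguts. That comparison was made on these same arrays.

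Total RNA came from dissected midguts of 4-day-old adult mosquitoes of the Keele strain, kept on sucrose. The sample labels of 17 of the 18 arrays call the female midguts unfed and give this age, and those of anterior versus whole replicate 1 give neither. Each of the 18 oligonucleotide arrays took 2 samples, labeled with Cy5 and with Cy3, with 3 biological replica assays for each of 6 comparisons. Male midgut was hybridized against female midgut. Of the female midgut, 4 compartments were each hybridized against the whole: the cardia, the anterior midgut, the anterior part of the posterior midgut (anterior-posterior) and its posterior part (posterior-posterior). In the last comparison, the female cardia was hybridized against the female posterior midgut. The first-named sample always carried Cy5, so that a positive log2 ratio stands for a higher abundance in it, and without a dye swap a dye effect of a probe and a difference between samples cannot be told apart. The number of midguts behind a sample, and whether the whole-midgut samples were a common pool, are not given in the sources used here. No treatment or genetic change separated the groups, and every sample was non-infected.

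Trypsins are serine endopeptidases that cut proteins after lysine and arginine, and carboxypeptidases then remove single residues from the carboxyl end of the resulting peptides. Together they break down the blood proteins that an adult female takes up, which takes place in the posterior midgut, while males feed on sugar alone. In *A. gambiae* the trypsin genes form a cluster of close relatives. Some of these are induced by a blood meal, and those studied here are known to be expressed in the unfed female before the meal arrives. The cardia is the valve-like entrance of the midgut, and the anterior midgut is a narrow tube in front of the wider posterior part.

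The deposited values were log2 Cy5/Cy3 ratios, between 12273 and 15494 spots per array, and carried no signal intensities, so that abundance itself could not be compared between transcripts and the precision rested on the number of arrays. The median of the 1937 transcripts listed by the study for its male and female assay, hereafter the sex list, was set to 0 on each array. Before centring, that median lay from -0.19 to 1.31 above the median of all transcripts of the same array, so that the choice of centre moved a ratio by up to that much. The cardia versus whole arrays stood apart from the rest. They correlated with one another at -0.13 to 0.06 over the sex list (other comparisons, from 0.19 to 0.75), and the median SD of a listed transcript was 0.754 there (other comparisons, 0.228 to 0.503). The 4 cardia markers, the antimicrobial peptides gambicin, cecropin CEC3, cecropin CEC2 and defensin 1, were positive on 3 of 3 cardia versus posterior arrays. The study named these 4 as cardia-enriched on these same arrays, so that their signs are a description and no independent check of the dissection. On the cardia versus whole arrays the 4 markers were, after centring, positive in replicates 1 and 3 and negative in replicate 2. Before centring, the sex-list median was -1.26 in replicate 1 and -1.86 in replicate 3. Only cecropin CEC2 in replicate 1 (3.45 centred) and cecropin CEC3 in replicate 3 (2.21 centred) were positive before it.

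Of the 108 possible values of the 6 transcripts, 106 were present and 10 (9.43%) were a ratio of 1 within 0.0015, against 1.51% of all spot values and 1.36% of the values of the sex list. Trypsins 3, 4 and 5 all had a log2 ratio of 0 in anterior versus whole replicate 2. Trypsins 3 and 4 both stood at 0.0014 in anterior-posterior versus whole replicate 1, a value that 28 spots of that array shared. Trypsins 3 and 4 and carboxypeptidase ENSANGT00000021052 all stood at -0.0014 in posterior-posterior versus whole replicate 1, a value of 96 spots of that array. On these 3 arrays, ratios of 1 were more frequent among spots of the sex list (3.58%, 0.928% and 2.96%) than among the other spots (0.446%, 0.136% and 0.310%). The other 2 such values were that of carboxypeptidase ENSANGT00000020553 in cardia versus whole replicate 2 and that of trypsin 3 in cardia versus posterior replicate 2. How these ratios arose, an upper limit of the scan in both channels included, was not tested, since the values hold no intensities. The comparison means of single transcripts that contain such a value are given below with and without it, while the differences and correlations are given with these values unless stated.

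**Figure D1:**
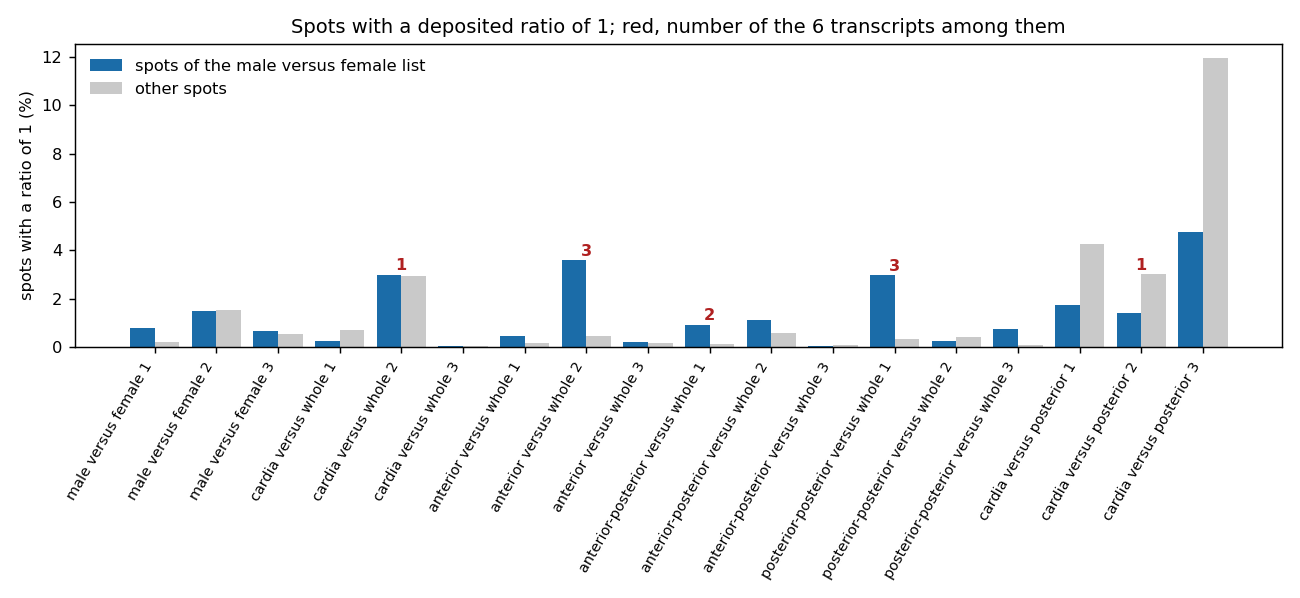
Percentage of spots with a deposited ratio of 1 (within 0.0015) on each of the 18 arrays, for spots of the sex list (blue) and all other spots (grey). The red digit gives how many of the 6 transcripts were among them: 3 each on anterior versus whole replicate 2 and posterior-posterior versus whole replicate 1, 2 on anterior-posterior versus whole replicate 1, and 1 each on 2 cardia arrays.

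On the centred values, trypsin 3, trypsin 4 and carboxypeptidase ENSANGT00000021052 were higher in the anterior-posterior midgut than in the whole midgut, by 2.84-, 2.61- and 2.73-fold. Without centring their log2 means were 0.52, 0.40 and 0.47 and 0 were called higher, and 0 were called with the 3 arrays of the comparison fitted alone. The centred means of these 3 were positive in all 4 compartments. For trypsin 3 they were 1.50 (anterior-posterior), 1.43 (posterior-posterior), 0.94 (cardia) and 0.62 (anterior). The level against whole midgut thus rests on the centring. In the direct comparison of cardia with posterior midgut, the centred means of the 3 were 0.34, 0.03 and -0.17. With centring over the 18 arrays, these 3 of the 6 passed the call used throughout, a mean change of at least 2-fold with a Benjamini-Hochberg adjusted p under 0.05 in limma, fitted and adjusted over all transcripts, against 1.21% of the 14194 transcripts tested, and 6.14% of the sex list, that were called higher in that compartment. The median log2 ratio of the 6 was 1.13 there, against -0.86 over all transcripts and -0.004 over the sex list. In the posterior-posterior midgut their median was 1.22, against -0.51 over all transcripts and -0.002 over the sex list. There 0 of the 6 passed, as did 0% of all transcripts. In the other 4 comparisons 0 of the 6 passed, and their medians lay between -0.34 and 0.45. Ratios of dissected tissue cannot tell apart a difference in the number of secreting cells and one in the transcript per cell.

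**Figure D2:**
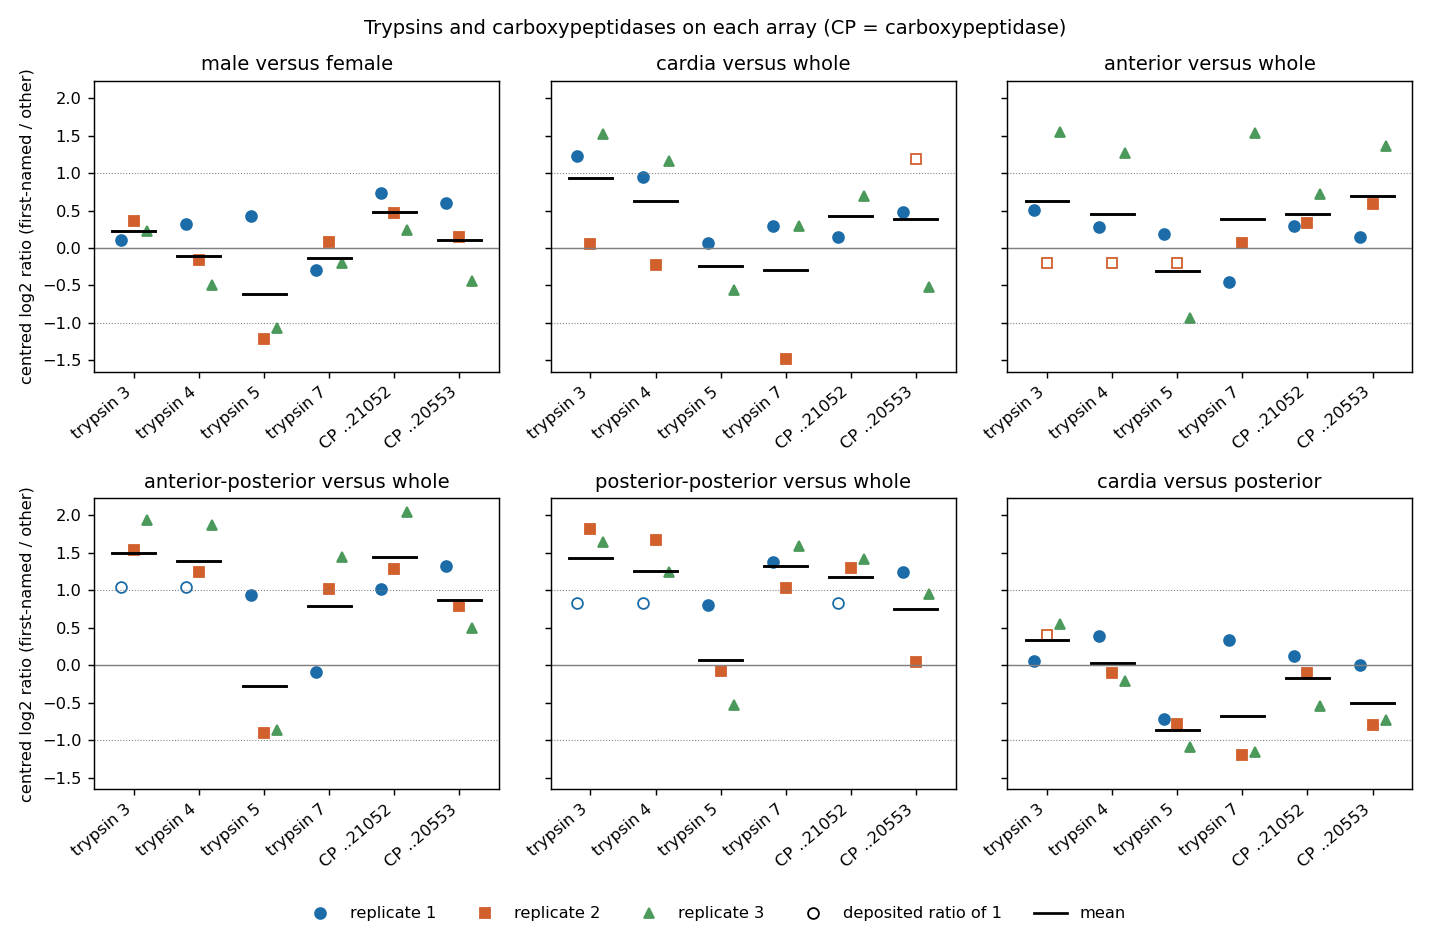
Centred log2 ratio (vertical axis) of the 4 trypsins and 2 carboxypeptidases (horizontal axis, CP with the last digits of the identifier) in the 6 comparisons, with the 3 replicate arrays as symbols, the mean as a bar and ratios deposited as 1 as open symbols. Dotted lines mark a 2-fold change. Trypsins 3 and 4 and carboxypeptidase ENSANGT00000021052 are positive on all 6 arrays of the anterior-posterior and posterior-posterior compartments (before centring on 5, 5 and 4 of the 6), while trypsin 5 is positive on 2 of the 6 (before centring on 0, and centred on all transcripts on 5).

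Trypsin 3 had centred log2 ratios of 1.04, 1.53 and 1.94 on the anterior-posterior versus whole arrays, a mean of 1.50 ± 0.45 (SD, n = 3), with an adjusted p of 0.0177 in limma. All 3 arrays were thus above a 2-fold change, and the lowest of them was the array on which its ratio was 1 before centring. Without that value the mean was 1.74 (adjusted p = 0.0214 in limma). On the posterior-posterior versus whole arrays trypsin 3 had 0.83, 1.81 and 1.64, with a mean of 1.43 ± 0.52 (adjusted p = 0.156 in limma), or 1.73 (adjusted p = 0.163) without the ratio of 1 in replicate 1. It ranked at or above the 95.4th percentile of all transcripts on each of these 6 arrays, and between the 85.7th and 99.8th percentile of the sex list.

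Trypsin 4 behaved much as trypsin 3 did. Its ratios were 1.04, 1.24 and 1.87 on the anterior-posterior arrays, a mean of 1.39 ± 0.43 (adjusted p = 0.0195 in limma), and 0.83, 1.67 and 1.25 on the posterior-posterior arrays, a mean of 1.25 ± 0.42 (adjusted p = 0.157). Without the ratios of 1 these means were 1.56 (adjusted p = 0.0261) and 1.46 (adjusted p = 0.181). In the anterior midgut, in front of the posterior part, trypsin 3 had 0.51, -0.20 and 1.55 and trypsin 4 had 0.27, -0.20 and 1.27. The middle array of both is the one with a ratio of 1, and neither transcript passed there (adjusted p = 0.176 and 0.301 in limma). Setting that array's ratios of 1 aside moved the means of 0.62 and 0.45 to 1.03 and 0.77 (adjusted p = 0.0938 and 0.167), still short of the call.

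Trypsin 7 had, after centring, even values on the posterior-posterior arrays and uneven ones on the anterior-posterior arrays. On the posterior-posterior arrays it had 1.37, 1.03 and 1.59, all over 2-fold, with a mean of 1.33 ± 0.28 that did not pass after adjustment (adjusted p = 0.182 in limma). Before centring these values were 0.54, -0.16 and 1.12. The anterior-posterior arrays gave -0.09, 1.02 and 1.45, a mean of 0.79 ± 0.80 (adjusted p = 0.15), in which replicate 1 lay on the other side of 0. The anterior-posterior minus posterior-posterior difference of trypsin 7 was -0.54 (95% interval -1.82 to 0.75, adjusted p = 0.997 in limma). In the anterior midgut it had -0.45, 0.07 and 1.54. None of its 18 values was a ratio of 1.

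Trypsin 5 departed from the other trypsins. Its anterior-posterior ratios were 0.94, -0.90 and -0.86 and its posterior-posterior ratios were 0.81, -0.07 and -0.54, with means of -0.27 ± 1.05 and 0.07 ± 0.68 (adjusted p = 0.596 and 0.92 in limma). In both compartments replicate 1 was positive and the other 2 arrays were negative, so that the sign went with the replicate number. Replicate 1 also had its highest centred ratio in male versus female midgut (0.43), the anterior midgut (0.19) and cardia versus posterior midgut (-0.71). The same held in cardia versus whole midgut (0.06), where replicate 2 had no value. The sign in these 2 compartments also rested on the centring. Trypsin 5 was positive on 0 of their 6 arrays before centring and on 5 of the 6 when arrays were centred on all transcripts. In the anterior midgut it had 0.19, -0.20 and -0.93, with a mean of -0.31 ± 0.57, or -0.37 without the ratio of 1 in replicate 2. Across the series it was the lowest of the measured members on 12 of 18 arrays (on 1 of them tied with trypsins 3 and 4 at a ratio of 1) and the highest on 0, and it lay below the median of the sex list on 12 of the 17 arrays where it had a value. The ratio of trypsin 3 was above that of trypsin 5 on 15 of these 17 arrays, below it on 1 and equal on the array where both were a ratio of 1. Pooled over the 6 unlike comparisons, the mean difference was 1.27 ± 0.98, which does not depend on the centring. By comparison it ran from 0.85 (male versus female) to 1.78 (anterior-posterior versus whole).

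Carboxypeptidase ENSANGT00000021052 had 1.02, 1.28 and 2.05 on the anterior-posterior arrays, a mean of 1.45 ± 0.54 (adjusted p = 0.0167 in limma, the lowest of the 6). On the posterior-posterior arrays it had 0.83, 1.30 and 1.42, a mean of 1.18 ± 0.31 (adjusted p = 0.156), or 1.36 (adjusted p = 0.163) without the ratio of 1 in replicate 1. In the anterior midgut it had 0.30, 0.33 and 0.72. It was thus positive on all 9 arrays of these 3 compartments after centring, and on 5 of the 9 before it. Carboxypeptidase ENSANGT00000020553 was also positive on those 9 arrays (6 before centring), with 1.33, 0.80 and 0.50 in the anterior-posterior midgut, 1.24, 0.05 and 0.95 in the posterior-posterior midgut and 0.15, 0.59 and 1.35 in the anterior midgut. Its 3 means, 0.87, 0.75 and 0.70, did not pass (adjusted p = 0.0752, 0.278 and 0.149 in limma), and they fell within 1 SD of each other.

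**Figure D3:**
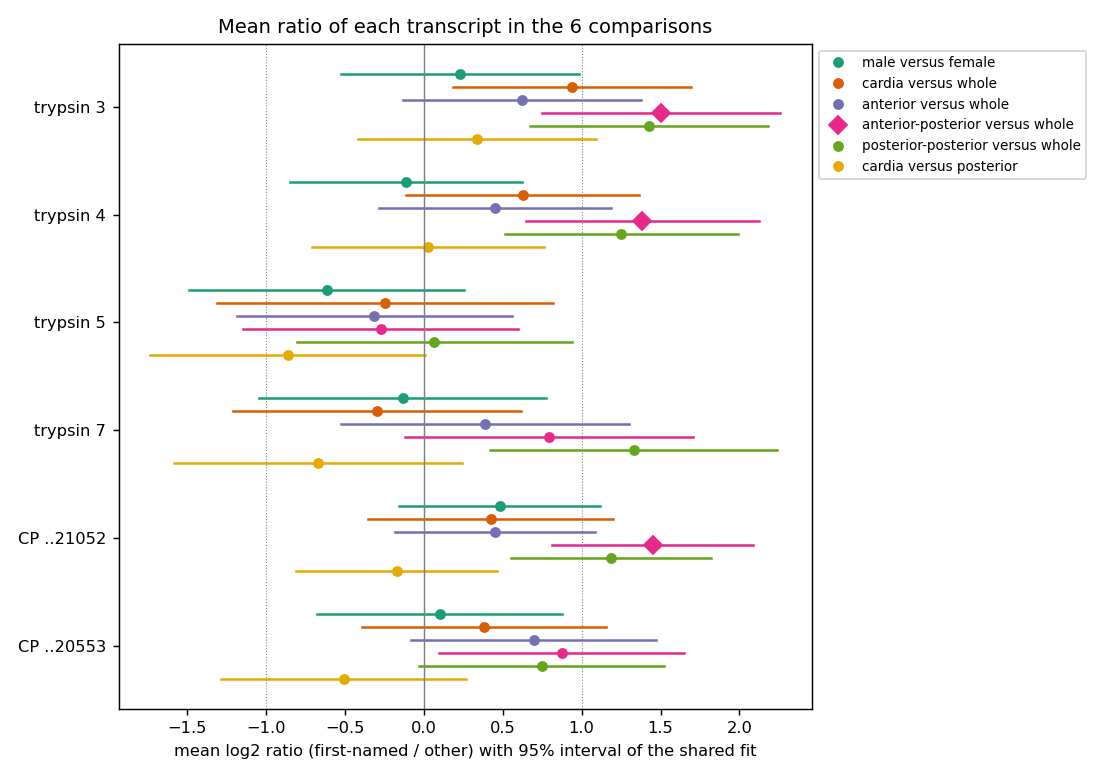
Mean log2 ratio (horizontal axis) of each of the 6 transcripts (rows) in the 6 comparisons (colours), with the 95% interval of the limma fit, which shares 1 spread per transcript over all arrays. Diamonds mark the 3 means called, all in the anterior-posterior versus whole comparison, at 1.50, 1.39 and 1.45. Dotted lines mark a 2-fold change.

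The 3 anterior-posterior calls were lost in several alternative fits. Without centring, trypsin 5 was called lower (-1.25, adjusted p = 0.0158 in limma), as were 82.9% of all transcripts. With the 3 arrays of the comparison fitted alone, the same 3 means had adjusted p of 0.0584, 0.0721 and 0.0643 (0.0654% of all transcripts called higher), and without replicate 1 or without replicate 2 they had adjusted p between 0.134 and 0.151, so that 0 of the 6 were called in each of these fits. Leaving out either of those arrays left 0 calls among all transcripts as well. Without replicate 3, 3 of the 6 were called, with 1.28% of all transcripts called higher. For the posterior-posterior midgut, 4 of the 6 (trypsins 3, 4 and 7 and carboxypeptidase ENSANGT00000021052) were at least 2-fold higher at an unadjusted p under 0.05 in limma, against 0.726% of all transcripts. With arrays centred on all transcripts, 3 of the 6 were called there (adjusted p = 0.0492 each), 5 in the anterior-posterior midgut and 4 in the anterior midgut, all higher, against 0.162%, 7.74% and 3.05% of all transcripts called higher in these fits. Across the 18 values on the arrays of each compartment, 15 in the posterior-posterior midgut, 14 in the anterior-posterior midgut and 11 in the anterior midgut lay at or above the 90th percentile of all transcripts on their array, where 12.2% to 39.8%, 16.6% to 36.1% and 30.4% to 39.5% of the sex list lay.

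No difference between compartments, set against each other through whole midgut, passed for any of the 6 transcripts. For the anterior minus anterior-posterior difference, the fitted values ran from -1.0 to -0.04, all 6 below 0, and 0 of the 6 passed in limma, as did 0% of all transcripts. Carboxypeptidase ENSANGT00000021052 had -1.0 (95% interval -1.90 to -0.10), which reached 2-fold at an unadjusted p of 0.031 (adjusted p = 1), a rule that 1.93% of all transcripts met in that direction. The anterior minus posterior-posterior difference ran from -0.94 to -0.05, again with all 6 below 0 under this centring, 0 of them called and 0% of all transcripts called (2.02% reached 2-fold at an unadjusted p under 0.05, with 0 of the 6). The anterior-posterior minus posterior-posterior difference ran from -0.54 to 0.27, with 0 of the 6 and 0% of all transcripts called in limma (3.75% reached 2-fold at an unadjusted p under 0.05, with 0 of the 6). The signs turned with the centring. Without centring, the anterior minus anterior-posterior difference was 0.59 for trypsin 5, 0.23 for trypsin 7 and 0.46 for carboxypeptidase ENSANGT00000020553, and the anterior minus posterior-posterior difference was 0.10 for trypsin 5 and 0.43 for that carboxypeptidase, for which it was 0.26 when arrays were centred on all transcripts. These differences use the same arrays as the ratios above. Over the 4 compartments the centred means fell in the order anterior-posterior, posterior-posterior, cardia and anterior for trypsins 3 and 4, and anterior-posterior, posterior-posterior, anterior and cardia for both carboxypeptidases. For trypsin 7 the order was posterior-posterior, anterior-posterior, anterior and cardia, and for trypsin 5 it was posterior-posterior, cardia, anterior-posterior and anterior, with the last 3 of these at -0.25, -0.27 and -0.31. With ratios of 1 treated as missing, the anterior midgut, at 1.03 and 0.77, stood above the cardia, at 0.94 and 0.63, for trypsins 3 and 4. Intervals of neighbours overlapped in each of these orders. The orders turned with the centring as well. Without it, trypsins 3 and 4 ran posterior-posterior, anterior-posterior, anterior and cardia, for trypsin 3 at 0.60, 0.52, 0.27 and -0.50. Carboxypeptidase ENSANGT00000020553 was then highest in the anterior midgut, at 0.35.

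Between male and female midgut, 0 of the 6 transcripts were called in limma, against 7.37% of all transcripts, and 0 reached 2-fold at an unadjusted p under 0.05, against 27.9% of all transcripts. Most calls over all transcripts were lower ones (7.17%). Of the sex list, which holds all 6, 1.45% were called higher and 0.361% lower. Since the study selected the 6 transcripts in that comparison on these arrays, the counts are a description. The study named them as enriched in female midgut, by its own normalized ratios and a 2-fold rule. That side is negative here, and the lowest of the 6 means on the centred values was -0.62 (trypsin 5). Trypsin 3 had centred log2 ratios of 0.10, 0.37 and 0.23 and carboxypeptidase ENSANGT00000021052 had 0.73, 0.47 and 0.24, positive on 3 of 3 arrays, which is the side of male midgut. The means were 0.23 ± 0.13 (adjusted p = 0.633) and 0.48 ± 0.25 (adjusted p = 0.246 in limma). Trypsin 4 had 0.32, -0.16 and -0.50, trypsin 7 had -0.29, 0.08 and -0.20, and carboxypeptidase ENSANGT00000020553 had 0.59, 0.15 and -0.44, each with both signs. Trypsin 5 had 0.43, -1.21 and -1.07, so that 2 of its 3 arrays lay beyond 2-fold on the side of female midgut, and its mean was -0.62 ± 0.91 (95% interval -1.49 to 0.25, adjusted p = 0.275). The median of the 6 was -0.01, against -0.70 over all transcripts and -0.03 over the sex list. Centred on all transcripts in place of the sex list, each ratio was higher by 0.57 to 0.76, depending on the array, which placed the means of all 6 above 0, that of trypsin 5 at 0.06.

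In the cardia, against whole midgut, 0 of the 6 transcripts were called in limma (1.41% of all transcripts), and 0 reached 2-fold at an unadjusted p under 0.05 (12.8%). Trypsin 3 had 1.23, 0.05 and 1.53, with a mean of 0.94 ± 0.78 (adjusted p = 0.185), and trypsin 4 had 0.95, -0.23 and 1.16. In both, replicate 2, the array on which the cardia markers were all negative after centring, was the low one. Without it trypsin 3 had a mean of 1.38 and was called (adjusted p = 0.0487 in limma), with 2.32% of all transcripts called higher. Trypsin 7 had 0.29, -1.47 and 0.30, and trypsin 5, with 2 arrays, had 0.06 and -0.56. Carboxypeptidase ENSANGT00000021052, also with 2 arrays, had 0.15 and 0.70, and carboxypeptidase ENSANGT00000020553 had 0.48, 1.19 and -0.53, where the highest was a ratio of 1. Its mean was 0.38 ± 0.86 with that value and -0.02 without it (adjusted p = 0.646 and 0.987 in limma). Without centring, the fitted means of all 6 were negative and 4 were called lower (trypsins 5 and 7 and both carboxypeptidases), against 79.3% of all transcripts, so that the direction in the cardia versus whole comparison turned with the centring.

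In the direct comparison of cardia with posterior midgut, whose arrays had the smallest spread (median SD 0.228), 0 of the 6 transcripts were called in limma (0.275% of all transcripts), and 0 reached 2-fold at an unadjusted p under 0.05 (5.09%). Trypsin 5 had -0.71, -0.78 and -1.09, negative on 3 of 3 arrays, which is the side of posterior midgut, with a mean of -0.86 ± 0.20 (95% interval -1.73 to 0.01, adjusted p = 0.625). Trypsin 3 had 0.06, 0.40 and 0.55, positive on 3 of 3 arrays, of which replicate 2 was a ratio of 1 before centring, with a mean of 0.34 ± 0.26 (adjusted p = 0.91), or 0.31 (adjusted p = 0.934) without it. Trypsin 7 had 0.34, -1.20 and -1.16, and carboxypeptidase ENSANGT00000020553 had 0.01, -0.80 and -0.73. In both, replicate 1 stood apart from the other 2 arrays. Trypsin 4 (0.39, -0.10 and -0.21) and carboxypeptidase ENSANGT00000021052 (0.13, -0.10 and -0.55) lay about 0. The median of the 6 was -0.34, against -0.23 over all transcripts and -0.02 over the sex list.

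In the anterior midgut, against whole midgut, 0 of the 6 transcripts were called in limma (6.08% of all transcripts) and 0 reached 2-fold at an unadjusted p under 0.05 (32.0%). Of the sex list, which holds all 6, 1.55% were called higher and 1.14% lower. The calls in that comparison were mostly lower ones, and the fitted means of the 6 were positive in all but trypsin 5. The median of the 6 was 0.45, against -0.85 over all transcripts and -0.05 over the sex list. Replicate 3 was the highest of the 3 arrays for trypsins 3, 4 and 7 and both carboxypeptidases, and the lowest for trypsin 5.

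Over the series, trypsins 3 and 4 had Pearson's r = 0.92 across the 18 arrays, and trypsin 7 had r = 0.71 with trypsin 3 and 0.79 with trypsin 4. Trypsin 5 had r = -0.04 with trypsin 3, 0.20 with trypsin 4 and 0.04 with trypsin 7 over 17 arrays. Carboxypeptidase ENSANGT00000021052 followed the trypsins 3, 4 and 7 (r = 0.71, 0.81 and 0.78, 17 arrays), and carboxypeptidase ENSANGT00000020553 had its highest r with carboxypeptidase ENSANGT00000021052 (0.56) and trypsin 5 (0.50). These values are a description: the points share their centring, the arrays of a comparison share their samples' tissue, and several points of trypsins 3 and 4 are ratios of 1 on both. With all ratios of 1 treated as missing, trypsin 3 had r = 0.92 with trypsin 4 over 14 arrays and -0.04 with trypsin 5 over 13. Carboxypeptidase ENSANGT00000020553 then had its highest r with trypsin 7 (0.67) and trypsin 4 (0.58). Its r was then 0.57 with carboxypeptidase ENSANGT00000021052 and 0.49 with trypsin 5, so that its order of likeness turned with these values. As the trypsin genes are close relatives, hybridization of a transcript to the 60-mer probe of another was not tested, and probe sequences were not used here.

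**Figure D4:**
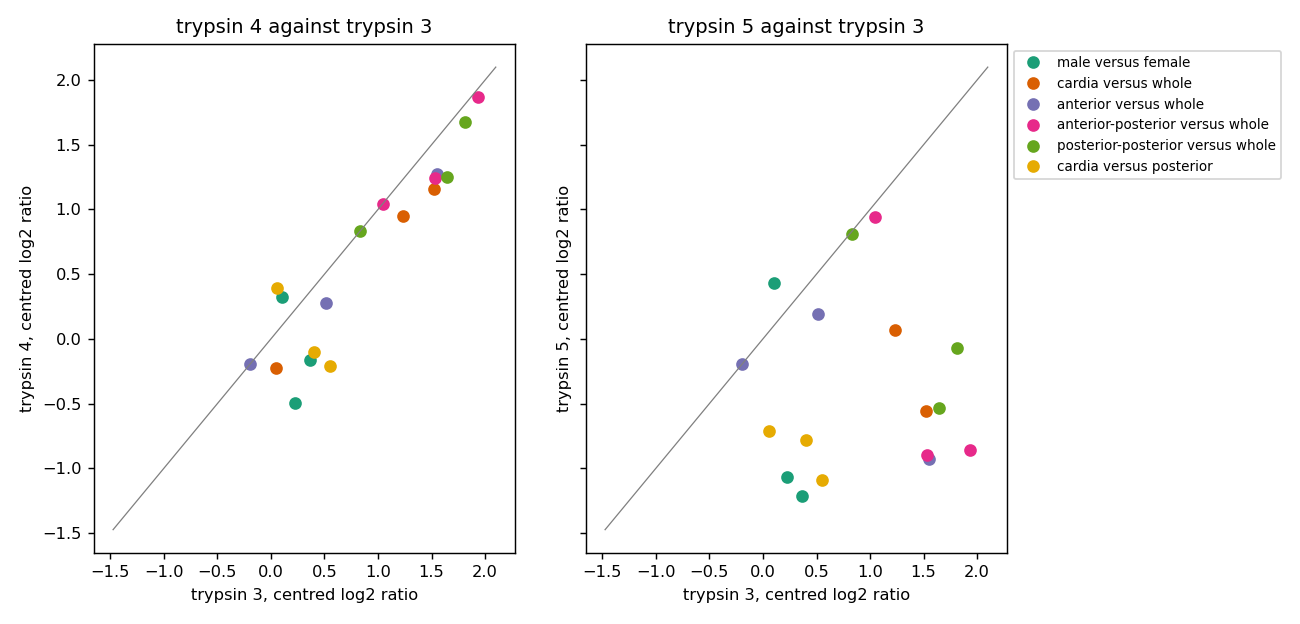
Centred log2 ratio of trypsin 4 (left) and trypsin 5 (right) against that of trypsin 3 on each array, 18 arrays on the left and 17 on the right, coloured by comparison; the grey line marks equal ratios. Trypsin 4 follows trypsin 3 (r = 0.92), while trypsin 5 does not (r = -0.04) and lies below the line on 15 of 17 arrays.

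The 2 enzyme classes were set against each other within each array, which removes the centring. The mean of the trypsins minus the mean of the carboxypeptidases was negative on 3 of 3 arrays in male versus female midgut (-0.52, -0.54 and -0.28), in the anterior midgut (-0.09, -0.59 and -0.18) and in the anterior-posterior midgut (-0.44, -0.31 and -0.18). It had both signs in the posterior-posterior midgut (-0.07, 0.44 and -0.20), in the cardia versus whole arrays (0.32, -1.74 and 0.52) and in the cardia versus posterior arrays (-0.05, 0.03 and 0.16). The trypsin mean took in trypsin 5, at -0.93 in anterior and -0.86 in anterior-posterior replicate 3. There trypsins 3, 4 and 7 all lay above the carboxypeptidase means of 1.04 and 1.28, so that the negative sign rested on trypsin 5. In anterior-posterior replicate 2, trypsins 3 and 4 (1.53 and 1.24) lay above that mean (1.04), and trypsins 7 and 5 (1.02 and -0.90) below it. A class difference without trypsin 5 was not computed. Over the 18 arrays the difference averaged -0.21 ± 0.50 and was negative on 13. Without cardia versus whole replicate 2, where 3 trypsins were set against 1 carboxypeptidase at a ratio of 1, it averaged -0.12 ± 0.33 and was negative on 12 of 17. With 3 arrays a comparison, an exact sign-flip test could not pass, and none was made.

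Among 29 other peptidases in the study's lists with a digestive annotation (12 by the word trypsin, chymotrypsins included, 7 by carboxypeptidase and 10 by aminopeptidase N, which removes residues from the amino end), 0 were called higher and 6 lower in the anterior-posterior midgut in limma, against 24.0% of all transcripts called lower. The largest of these falls were those of the trypsin-family transcript ENSANGT00000007321 (-2.08, adjusted p = 0.0493, measured on 2 arrays), the serine carboxypeptidase ENSANGT00000026219 (-1.33, adjusted p = 0.0306) and the trypsin-family transcript ENSANGT00000016337 (-1.30, adjusted p = 0.0226). Carboxypeptidase ENSANGT00000028219 was the 1 transcript of the 29 called in male versus female midgut, lower in male midgut at -1.77 (adjusted p = 0.0377, with 7.17% of all transcripts called lower), and the 1 called in the anterior midgut, at -1.59 (adjusted p = 0.0445, with 5.85% called lower). In the cardia versus whole comparison the trypsin-family transcript ENSANGT00000015040 was called higher (1.80, adjusted p = 0.0341, with 0.440% of all transcripts called higher). In the posterior-posterior midgut and in the cardia versus posterior comparison 0 of the 29 were called. The study listed many of the 29 for their ratios on these arrays, so that their counts are a description. Their median log2 ratio was -0.59 in the anterior-posterior and -0.40 in the posterior-posterior midgut, against the 1.13 and 1.22 of the 6 transcripts and -0.86 and -0.51 over all transcripts. The 7 of the 29 that were on the sex list, as all of the 6 were, had medians of 0.59 and 0.55, with 7 and 5 of them positive, and the other 22 had -0.81 and -0.52.

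Transcripts of the study's lists that ran most like each of the 6 over the arrays were found by Pearson's r of the centred ratios, among 2475 candidates with a value on all 18 arrays, or 2653 on the 17 arrays of trypsin 5 and carboxypeptidase ENSANGT00000021052. Trypsin 3 ran with the ribosomal protein L17/L23 transcript ENSANGT00000011784 (r = 0.92), trypsin 4 (0.92) and the peritrophin precursor ENSANGT00000023523 (0.88), a protein class of the chitinous matrix that lines the gut. Trypsin 4 ran with trypsin 3, with ENSANGT00000011784 (0.90) and with ENSANGT00000020224 (0.86). Trypsin 7 ran with the angiotensin converting enzyme precursor ENSANGT00000011721 (0.79), trypsin 4 (0.79) and ENSANGT00000012427 (0.78). The highest r of trypsin 5 were lower, with ENSANGT00000021887, annotated as a ubiquinol cytochrome c reductase subunit (0.71), ribosomal protein S7 ENSANGT00000020928 (0.68) and the carbonic anhydrase ENSANGT00000021306 (0.68). Carboxypeptidase ENSANGT00000021052 ran with the beta-hexosaminidase ENSANGT00000019251 (0.89), the aldo-keto reductase ENSANGT00000018090 (0.88) and the cotransporter ENSANGT00000010934 (0.83). Carboxypeptidase ENSANGT00000020553 ran with the ribosomal proteins L10A ENSANGT00000015019 (0.90) and L9 ENSANGT00000018677 (0.87) and with ENSANGT00000016899 (0.85). The median r of the candidates lay between -0.02 and 0.08.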

How the data were processed

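Per the labels, RNA of 18 pairs of midgut samples was hybridized to 60-mer oligonucleotide arrays of 15495 spots. The authors scanned the spots and deposited 1 log2 Cy5/Cy3 ratio per spot and array. Their methods name a signal cut-off of 100 units and LOWESS normalization, but array medians differed, so that the deposited log2 values were taken as not normalized. A ratio of 100000, found in 120 spots, was treated as missing. There were 0 columns beyond those of the 18 arrays. Spots were averaged by transcript and arrays centred on the sex list of 1937 transcripts. limma 3.58.1 in R 4.3.3 fitted the 18 arrays with 1 mean per comparison and 1 spread per transcript (prior degrees of freedom 7.04), over all transcripts with values on at least 2 arrays of a comparison. Where arrays scatter more than the shared spread, as in the cardia versus whole and anterior-posterior versus whole comparisons, this understates the error. The fit was run on simulated data, where recovery and false calls were held to a limit only with 1 spread for all comparisons. That check does not cover the unequal spread of these arrays. Tables used Python 3.11.15 and pandas 2.3.3.

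The members and lists were chosen with earlier results of these data known. All 6 members were named. Of the related peptidases, all called in a comparison were named if 5 or fewer, and otherwise the 3 largest in each direction. The 3 transcripts most like each member were named too. Alternatives were other centrings, the study's listed transcripts as the tested set, arrays of 1 comparison alone, a replicate block, array weights, a value on all 3 arrays, leaving out each array, the methods' test, and, chosen after seeing the data, ratios of 1 as missing.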

Additional observations from a re-analysis of the deposited data

How the results depend on the processing

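Of 640 refitted values (6 transcripts, 9 comparisons and differences, under the alternatives other than the methods' test), 610 stayed on their side of the threshold with the direction of any call, and 56 changed sign. Most of the 610 were uncalled values that stayed uncalled, so that their number says little of the 3 calls. A call was lost in 12 refitted values: 3 without centring, 3 with the arrays of the comparison alone and 6 on leaving out 1 array. In 16 others a call was gained. Of the sign changes, 16 came without centring, 8 with arrays centred on all transcripts and 27 on leaving out 1 array. They included trypsin 3 in cardia versus whole midgut, at 0.94 with centring and -0.50 without it. Reversed ratios were those of carboxypeptidases ENSANGT00000021052 and ENSANGT00000020553 in cardia versus whole midgut without centring, at -1.14 and -1.05. Centred on all transcripts, the 6 had 4 calls in the anterior, 5 in the anterior-posterior and 3 in the posterior-posterior midgut, all higher, as were 3.05%, 7.74% and 0.162% of all transcripts. Without centring there were 4 in the cardia versus whole and 1 in the anterior-posterior comparison, all lower, as were 79.3% and 82.9% of all transcripts. With the arrays of the comparison fitted alone, 0 were called in the anterior-posterior midgut, and with array weights 3 were called in the posterior-posterior midgut (1.01% of all transcripts called higher). The methods' t-test after adjustment called 0 in the anterior-posterior midgut, and before adjustment it called 4 in the posterior-posterior midgut (0.514% called higher). Leaving out 1 array gave 0 to 3 calls in the anterior-posterior comparison and 0 to 1 in the cardia versus whole comparison. It gave 0 in the others. The 3 calls came without replicate 3, when 1.28% of all transcripts were called higher and 45.6% in either direction. Treating ratios of 1 as missing kept 3 calls in the anterior-posterior midgut.

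Replicate numbers are shared between comparisons. Over transcripts, the deviations of same-numbered arrays had r from -0.37 to 0.28 over 45 pairs, 5 of them over 0.1. Male versus female and posterior-posterior arrays had a positive r in all 3 replicates (0.10 to 0.28). Anterior-posterior and posterior-posterior arrays had a negative r in all 3 (-0.17 to -0.37). Trypsin 5 had its highest centred ratio in replicate 1 in every comparison. Whether same-numbered arrays shared material was not tested. With the replicate number as a block in the fit, 3 of the 6 were called in the anterior-posterior midgut, with 1.04% of all transcripts called higher, and 0 in every other comparison and difference. The number of arrays, 3 a comparison, limits all of these values. With no intensities, signal over background could not be assessed.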
